A study of Apis mellifera with 25 samples.

Results

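A set of 6 honey bee workers (Apis mellifera) whose library titles begin with 888 were compared by the state of their ovaries, 3 bees with active ovaries (a, h and j) against 3 with inactive ovaries (e, q and u). They were taken by title from 25 libraries in all, each made from 1 bee, and the titles carry 4 such prefixes. Per the labels' protocols, all bees came from reciprocal crosses between Africanized and European stock and spent about 18 days as adults without a queen, and their ovary state was scored by dissection. A prefix is read here as a cross, which the labels do not state, and the sources used here give neither the direction of cross 888 nor the degree of ovary activation of each bee. Polyadenylated RNA came from the abdomen after removal of the gut, with the fat body and the ovaries still attached. In such a mixture, a smaller share of a tissue and less RNA per cell of that tissue cannot be told apart.

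Honey bee workers are normally sterile while a queen is present, because her pheromones and those of the brood keep their ovaries small. When the queen is lost, some workers activate their ovaries, grow oocytes and lay unfertilised eggs that develop into males. The fat body, the insect counterpart of liver and adipose tissue, makes yolk protein, storage proteins and immune peptides, and supplies the growing oocytes.

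Total gene counts were 30562903, 30863681 and 21613713 in bees a, h and j, against 14290796, 28193230 and 7539840 in bees e, q and u. A count was found for 14436 to 14974 of 15314 gene identifiers per library. No identifier could be paired with a name, 0 of 15314 being found in the gene table used here, so genes are given by identifier, without roles, and marker genes of ovary, fat body or other tissues could not be checked. Bees e and q stand apart in the allele counts. Genes that had lost nearly all reads of the D version, read here as that of the drone father, although sisters carried both versions, numbered 0 in each of a, h and j, against 17 in e, 36 in q and 4 in u. The number was 0 to 18 (median 1.0) in the 19 libraries of the other crosses, a range that holds e but not q. Results are therefore given with and without e and q together, where u is the only inactive bee. Within 888 the spread in that fit comes from the active bees alone, which varied less than the inactive bees, as given below. Its adjusted p and counts of calls are therefore not relied on within 888, and its log2 changes are given.

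The first comparison asked which genes differ between workers of this cross with active and with inactive ovaries. Of 13261 genes tested, 1216 (9.17%) were higher with active ovaries and 1342 (10.1%) were lower, together 19.3% (quasi-likelihood test of edgeR, Benjamini-Hochberg adjusted p under 0.05). Most calls were of at least 2-fold, 1152 in the higher and 1305 in the lower direction. At least 4-fold changes numbered 318 higher and 300 lower, and at least 8-fold changes 57 and 43. Changes of at least 16-fold were found in 8 higher and 20 lower genes. Higher calls had a median log2 change of 1.57 and lower calls one of -1.59, beside -0.13 over all genes tested. Without e and q the median log2 change over all genes was 0.16. The 3 active values all lay on 1 side of the 3 inactive values in 5543 genes, 41.8% of those tested, 2614 of them above and 2929 below. Of the calls, 1212 of the higher and 1298 of the lower showed no overlap.

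**Figure D1:**
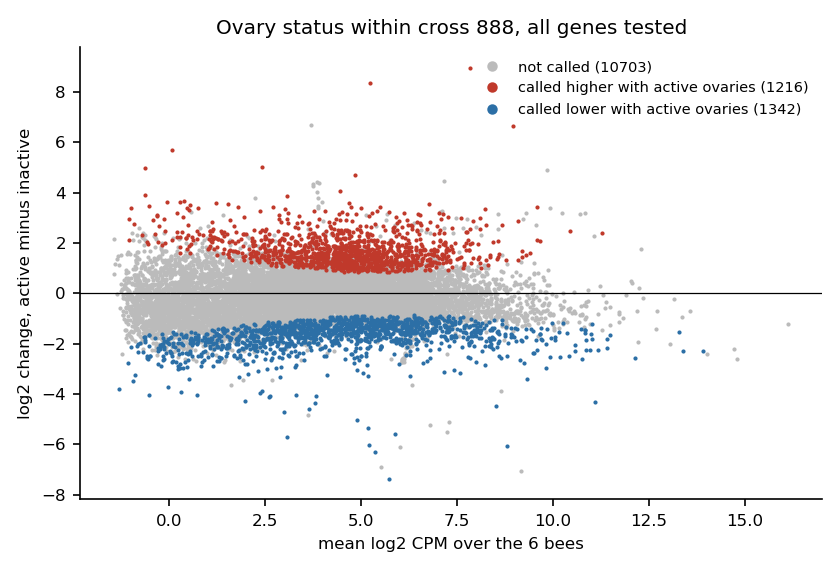
Each point is 1 of 13261 genes, with its mean level over the 6 bees (log2 CPM, counts per 1e+06 counts) on the x axis and its log2 change, active minus inactive, on the y axis. Red points are the 1216 genes called higher and blue points the 1342 called lower with active ovaries; the most abundant genes, at the right, are called mostly below 0.

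The balance between both directions depended on how library size was scaled. TMM scaling, which sets the bulk of genes level between libraries, gave 47.5% of calls in the higher direction, whereas scaling to library totals alone gave 2415 higher and 253 lower genes, 90.5% in the higher direction. That scaling moved the median log2 change of all genes by 0.55, and changes are given here relative to TMM. The difference between scalings goes with how evenly counts were spread. The 10 most abundant genes took 14.9%, 11.9% and 13.9% of the counts in a, h and j, against 28.2%, 29.99% and 20.3% in e, q and u. The active bees all lay below the inactive bees (exact two-sided permutation test p = 0.1, the smallest that 3 against 3 can give).

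The number of calls depended on which bees were in the fit. With bee h left out, 42 genes were called higher and 12 lower. Without a there were 521 and 212, and without j 251 and 104. Leaving out inactive bee q gave 748 and 890, whereas leaving out e gave 1418 and 1753, and leaving out u gave 1636 and 1159. Of the 54 genes called without h, 53 were among the calls made with all 6 bees, where the other libraries are the same. In the fit without h, 3249 genes passed an unadjusted p of 0.05. The median log2 change over all genes was -0.11 without h and -0.13 with all bees.

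**Figure D2:**
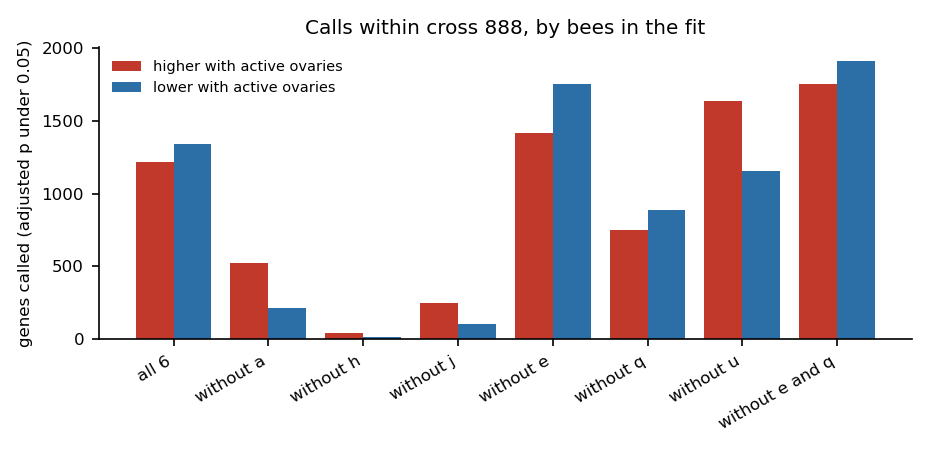
Bars give the genes called higher (red) and lower (blue) with active ovaries (edgeR adjusted p under 0.05) in the fit of all 6 bees, in fits without each bee and in the fit without e and q. Calls drop to 42 and 12 without bee h and stand at 1755 and 1914 without e and q.

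Which genes carry the response differed by direction. Higher calls were spread over many genes of moderate level. In the class from 16 to 100 CPM, 678 of 4870 genes were higher and 507 lower. Between 1 and 16 CPM the numbers were 381 and 543 of 5794, and below 1 CPM 26 and 46 of 1037. Lower calls took a larger share of abundant genes: 216 lower and 129 higher of 1455 genes between 100 and 1000 CPM, and 30 lower and 2 higher of 105 genes at 1000 CPM or more. The median log2 change with all bees was -1.01 over the 105 genes and -0.34 over the 1455 genes. Without e and q these medians were -0.16 and 0.22, beside 0.16 over all genes.

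In counts, genes called higher took 9.70%, 12.7% and 11.7% of the libraries of a, h and j, against 1.57%, 2.26% and 3.59% in e, q and u. Genes called lower took 11.0%, 8.47% and 8.63% in a, h and j, against 21.5%, 22.7% and 21.7% in e, q and u. These shares describe genes that were chosen by the same difference. The summed difference in mean CPM was 65629 over the higher calls, of which the 10 largest made up 18.6%, and 98 genes were needed to reach 50% of it. Over the lower calls the sum was 193225, the single largest gene made up 10.6% and the first 10 made up 36.1%, and 24 genes reached 50%. That largest gene was GB50115, whose log2 change was -2.28 with all bees and -0.46 without e and q. The sums were made with all bees only, so how far this concentration rests on e and q was not tested. Genes present with active ovaries and nearly absent without were few: 11 had at least 10 counts in every active bee and at most 3 counts over all inactive bees. The reverse pattern was found in 0 genes, but these limits are in raw counts. With 7539840 counts in u, 10 counts were harder to reach in every inactive bee, so the 2 numbers cannot be set against each other.

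The gene GB40286 had the largest log2 rise among calls of at least 4 log2 CPM whose groups did not overlap. Its listed positions span 16873 to 18034 on scaffold Group13.14. It stood at 659, 568 and 147 CPM in a, h and j, against 1.36, 0.586 and 0.865 CPM in e, q and u. Every active bee was above every inactive bee by a wide margin, and the lowest active bee was j. The log2 change was 8.97 (SE 0.74, edgeR adjusted p = 0.00225), and 9.16 without e and q. The same gene changed by 4.73 in cross 882 (edgeR adjusted p = 0.0432). Its log2 change was 2.82 in cross 894 and 1.37 in cross 875, and neither passed the test. Its change in 888 exceeded the mean of the other crosses by 6.12 (SE 1.34), which did not pass the test of the difference over all genes (edgeR adjusted p = 0.0632).

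The higher call with the largest gain in CPM was GB46376, at 2506, 4346 and 5567 CPM in a, h and j, against 155, 1040 and 1162 CPM in e, q and u. The groups did not overlap, and e alone was far below its inactive sisters. Its log2 change was 2.40 (SE 0.69, edgeR adjusted p = 0.038), and 1.92 without e and q. The call was lost without any 1 of a, h, j, q or u, with changes of 2.14 to 2.86 and adjusted p of 0.0567 to 0.11. In cross 882 it changed by 3.19 (edgeR adjusted p = 0.00146), with 1330 to 3348 CPM in 3 active bees and 157 to 270 CPM in 4 inactive bees. Its log2 change was 0.69 in cross 875 and 0.54 in cross 894, and neither passed the test. Its response in 888 differed from the mean of the other crosses by 0.999 on the log2 scale (SE 0.84, adjusted p = 0.538).

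Among genes that fell, GB53115 had the largest log2 change. Its listed positions span 135360 to 135423 on scaffold Group4.5. It stood at 0.977, 0.421 and 0.493 CPM in a, h and j, against 213, 101 and 1.98 CPM in e, q and u. Bees e and q were high, whereas u lay just above the active bees. The log2 change was -7.36 (SE 1.62, edgeR adjusted p = 0.029) with all bees and -1.51 without e and q, so most of its size rests on those 2 bees. The call was lost without any 1 of a, h or j, at changes of -7.84, -7.12 and -7.21 (adjusted p = 0.0552, 0.159 and 0.134), and without e, at -6.33 (adjusted p = 0.078). In cross 882 it stood at 1.20 to 34.9 CPM in active bees and at 14.1 to 111 CPM in inactive bees, where the log2 change of -2.54 did not pass (edgeR adjusted p = 0.285). The response in 888 differed from the mean of the other crosses by -6.00 (SE 1.64, adjusted p = 0.0933).

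GB50115 was the lower call with the largest loss in CPM, at 6760, 2228 and 6837 CPM in a, h and j, against 34588, 34609 and 7828 CPM in e, q and u. Again e and q were alike and high, and u was close to a and j. The log2 change was -2.28 (SE 0.70, edgeR adjusted p = 0.0454), and -0.46 without e and q. The call was lost without any 1 of a, h, j, e or q, with changes of -2.50 to -1.91 and adjusted p of 0.0611 to 0.176. It was also lost with library totals only, limma-voom, a spread that was not robust, the test against 1.5-fold and the fit of all 25 libraries. In cross 882 it ranged from 2500 to 10308 CPM in active and from 7471 to 43708 CPM in inactive bees. In cross 875 the ranges were 2889 to 18441 CPM in active and 1074 to 16395 CPM in inactive bees, and in cross 894 they were 17882 to 19597 CPM and 14160 to 27072 CPM. Active and inactive bees overlapped in each of these crosses, and a and j lay within the active ranges of 875 and 882.

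**Figure D3:**
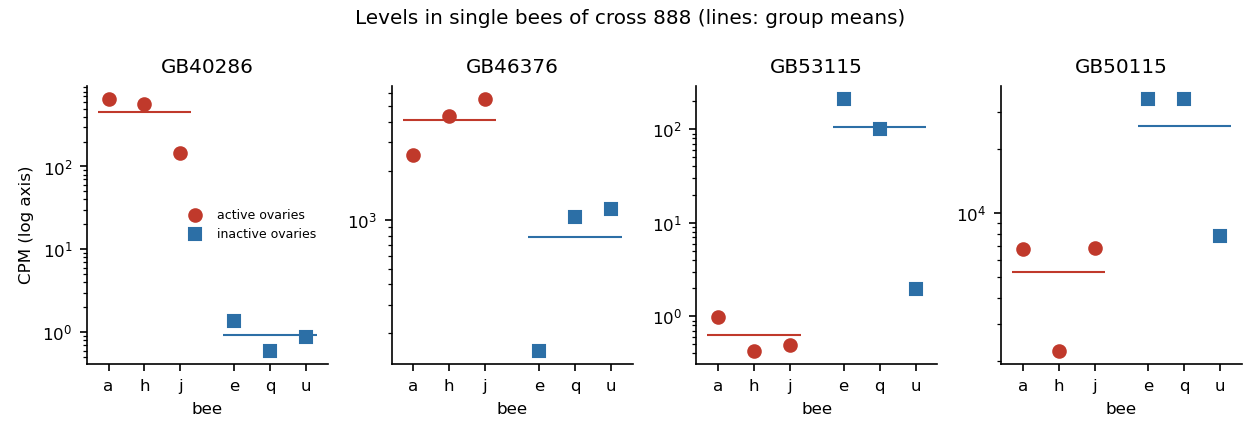
Each point is the CPM of 1 gene in 1 bee on a log axis, with active bees (red circles) left and inactive bees (blue squares) right; lines are group means. GB40286 separates all active bees from all inactive ones, while bee u lies near the active bees for GB53115 (1.98 CPM) and GB50115 (7828 CPM).

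Genes called in the other crosses were then followed in 888, where no library is shared with the list. Ovary status across the 19 libraries of crosses 875, 882 and 894 called 262 genes higher (1.89%) and 56 lower (0.404%). Tested alone, cross 882 called 663 genes higher and 238 lower, whereas crosses 875 and 894 each called 0. Of 261 genes of the higher list tested in 888, 216 were called higher there, 0 were called lower, and 260 had a log2 change above 0. Over all 13261 genes, 9.17% were called higher, 10.1% were called lower, and 5950 had a change above 0. Their median log2 change in 888 was 2.07, beside -0.13 over all genes. Of the 56 genes of the lower list, 43 were called lower in 888, and their median was -1.44. Without e and q the medians were 1.74 and -1.27, beside 0.16 over all genes. Without h the medians were 2.01 and -1.41, with 22 and 1 genes so called, beside 0.315% and 0.0901% of all genes.

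The inactive bees were graded on the higher list. Relative to the mean of all 6 bees, the median log2 level of the higher list was 0.83 in a, 1.19 in h and 1.20 in j, against -1.80 in e, -0.93 in q and -0.49 in u. The inactive bees thus differed among themselves by more than the active ones, with e lowest. On the lower list the bees of each group were close together, at -0.69, -0.79 and -0.70 in a, h and j, against 0.69, 0.85 and 0.64 in e, q and u. The median of all genes lay between -0.05 and 0.08 in every bee.

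**Figure D4:**
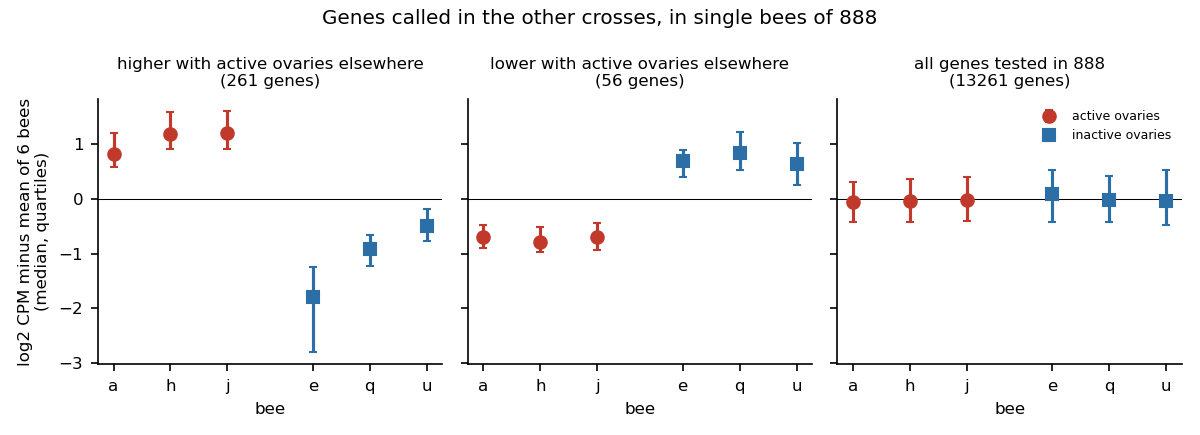
Points are medians and bars are quartiles, over the genes of a list, of the log2 CPM of a bee minus the mean of the 6 bees; active bees are left (red) and inactive bees right (blue) in each panel. The higher list falls to -1.80 in bee e and -0.49 in bee u, while the lower list lies between 0.64 and 0.85 in the inactive bees.

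Seen the other way, genes called in 888 had median changes of the same sign and of smaller size elsewhere. Of the higher calls of 888, 1184 were tested in cross 882. There 504 were called higher (edgeR adjusted p under 0.05, beside 5.17% of all genes in that cross) and their median log2 change was 1.01. Of 1307 lower calls, 170 were called lower in 882 (beside 1.86%), with a median of -0.80. The medians of higher and lower calls were 0.34 and -0.22 in cross 875, and 0.19 and -0.25 in cross 894. In these crosses 0 of them were called, as were 0 of all genes tested there (13368 and 13276). Since the lists were chosen by their change in 888, smaller changes elsewhere can follow from that choice, so the difference itself was tested. The ovary response in 888 differed from the mean of the other crosses in 2 of 13991 genes (0.0143%), 1 in each direction (0.00715% each; edgeR adjusted p under 0.05; 2317 at an unadjusted p under 0.05), while DESeq2 called 401. The count was 0 without h, without q and without any 1 of the other crosses, 5 without j, 29 without e and 79 without u. Against cross 882, edgeR called 0 genes (774 at an unadjusted p under 0.05), limma-voom also 0 and DESeq2 14. In simulated data, the edgeR test against the mean of the other crosses recovered 1% of 2-fold and 28% of 4-fold changes. Low counts in these tests therefore do not show that the responses were alike.

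Each ovary state of 888 was also set against the same state elsewhere. Active bees of 888 differed from active bees of the other crosses in 1149 of 13991 genes (8.21%), 917 higher (6.55%) and 232 lower (1.66%). The count was 13 without cross 894, 690 without 882 and 2020 without 875. It was 717 without bee a, 58 without h and 196 without j. Inactive bees of 888 differed from other inactive bees in 17 genes (0.122%), all higher in 888, and in 4 genes without e and q. That count was 53 without e, 0 without q, 10 without cross 875, 1 without 882 and 7 without 894. A difference between these 2 counts was not tested.

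Single bees varied more with inactive than with active ovaries. The biological coefficient of variation, edgeR's estimate of spread beyond counting error, was 0.273 among a, h and j and 0.440 among e, q and u, a ratio of 1.61. Other crosses did not all share this order. With active and inactive ovaries it was 0.497 and 0.424 in cross 875, 0.346 and 0.340 in 882, and 0.263 and 0.340 in 894. Within 888, pairs of active bees had a coefficient of 0.235 to 0.315 and pairs of inactive bees one of 0.402 to 0.483. Pairs of 1 active and 1 inactive bee had 0.4995 to 0.580. No test was made of this difference in spread. The highest and lowest bee differed at least 4-fold in 314 genes among active bees and in 1683 among inactive bees, of 13261. The inactive libraries include the 2 shallowest, and the part of depth in this difference was not tested.

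The first principal component of all genes held 53.1% of the variance and separated the groups, at 46.8, 68.8 and 64.6 in a, h and j, against -81.8, -56.7 and -41.9 in e, q and u (exact two-sided permutation test p = 0.1, the smallest possible). The second held 22.7%, ran from 59.5 in e to -73.5 in u, and left the other bees between. Over the 1000 most abundant genes, the first component stood at 12.4, 21.0 and 18.0 in a, h and j, against -33.7, -18.2 and 0.394 in e, q and u, so u lay between the active bees and its inactive sisters.

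Genes at least 4-fold from both other bees of a group numbered few in active bees: 3 high and 8 low in a, 22 high and 7 low in h, and 5 high and 12 low in j. Of the 22 genes high in h, 21 belong to the runs of near-constant excess described with GB44993. Among inactive bees e had 8 high and 79 low, q 13 high and 4 low, and u 76 high and 45 low. In the 15 comparable bees of other crosses, the counts ran from 5 to 57 high (median 17) and from 0 to 329 low (median 5). Of the 79 genes low in e alone, 23 were called higher with active ovaries, beside 9.17% of all genes tested, but a low value in an inactive bee is part of how these genes were picked. Of the 76 genes high in u alone, 53 were at or above the highest active bee, so most of them were as high in u as in any bee of the cross. Of these 76 genes, 15 were called lower with active ovaries, and of the 45 low in u alone 23 were, beside 10.1% of all genes tested. These genes too were picked by values that enter the call. Of the 45, 32 were at or above the lowest active bee in u. The most abundant gene of u took 0.663%, 0.559% and 0.644% of all counts in a, h and j, against 0.674%, 0.705% and 6.88% in e, q and u. The most abundant gene of the other 5 bees took 5.08%, 4.91% and 5.51% in a, h and j, against 9.63%, 10.2% and 3.04% in e, q and u (log2 change -1.23, SE 0.67, edgeR adjusted p = 0.203).

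The largest single-bee excess among inactive bees was in GB55171, with positions from 782974 to 784237 on scaffold Group11.6. It had 84.3, 548 and 396 CPM in a, h and j, against 0.968, 0.830 and 168 CPM in e, q and u. Bee u was thus 174-fold above the next inactive bee and within the range of the active bees. The log2 change was 2.60 (SE 1.92, edgeR adjusted p = 0.363).

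Among active bees the largest single-bee excess was in GB44993, at 0.488, 74.2 and 0.534 CPM in a, h and j, against 2.904, 0.244 and 0.741 CPM in e, q and u. In the gene table h was far above every other bee, with 2822 counts against 19 in a and 13 in j. This gene belongs to a run of 16 genes with neighbouring identifiers, and a further run of 15 genes was found in h. Over these 31 genes together, h exceeded its expected count by nearly the same number, 2814 counts at the median (2606 to 3176). The expected counts, from the median of the other libraries, ran from 8.77 to 1897. Each such run was sought as at least 6 genes with an excess of at least 500 counts that agreed within 15%, so the narrow range is part of the search. Of the 31 genes, 8 have positions, all on scaffold Group11.18 between 3008561 and 3360565. Summed over these 8, h had 670 CPM, against 74.9 CPM in a and 87.4 CPM in j. Reads at their 73 listed single-nucleotide positions lay between those of the other bees, at 208 in h, 262 in a and 143 in j per 1e+06 reads at all listed positions. Of the 30 genes of these runs that were tested, 5 were called higher with active ovaries, beside 9.17% of all genes, and all 30 carry the excess of h. Gene counts and reads at positions thus differ for h in these runs, and whether its excess there is expression was not settled by these files.

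**Figure D5:**
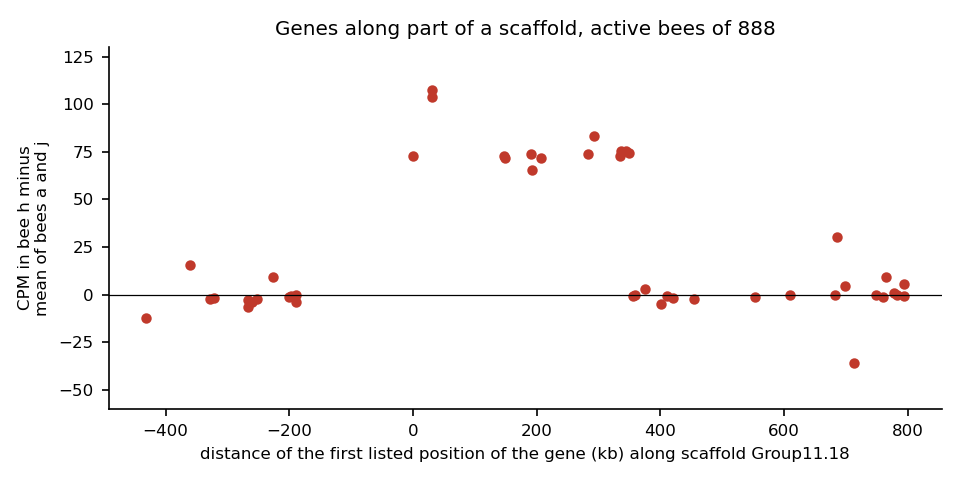
Each point is 1 gene with a listed position on part of scaffold Group11.18. The x axis is distance along the scaffold in kb from the first gene of the runs. The y axis is the CPM of bee h minus the mean of bees a and j. Of 15 genes between 0 and 349 kb, 14 stand between 65.6 and 107 CPM above a and j, and the plotted genes outside lie between -35.7 and 30.5 CPM; 1 gene within, at -175 CPM, is beyond the axis.

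Bee e showed runs of the same kind, of 35 and 6 genes. Over these 41 genes the excess was 2035 counts at the median (1716 to 2312). The 19 genes with positions lie on scaffold Group5.18 between 63440 and 491866. Summed over the 17 with positions in the inactive table, e had 4068 CPM, against 661 CPM in q and 1674 CPM in u. Reads at their 214 listed positions stood at 1081 in e, 547 in q and 750 in u per 1e+06 reads at all listed positions, a smaller excess than in the gene counts. Whether this excess is expression was not settled either. Runs like these occurred in 10 of the 19 libraries of other crosses, 9 of them on Group5.18. With the genes of the runs of h and e taken out of the calls, without a new fit, 1211 higher and 1339 lower genes remained. Some genes outside these runs also carried the excess of h, so these numbers leave such genes in. GB44971 stood at 24.3, 95.9 and 21.6 CPM in a, h and j, and GB45194 at 11.5, 91.1 and 20.0 CPM, and both were called higher.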

How the data were processed

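The authors deposited raw counts of reads per gene and, at single-nucleotide positions, per D or Q version. TopHat and edgeR are named, without versions, in the submitters' processing notes. The genome build, annotation, counting tool and strand setting were not given in the sources used here. Without strand, overlapping genes cannot be told apart.

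For 888, counts of its 6 libraries entered a robust quasi-likelihood F test (edgeR 4.0.16, R 4.3.3) after TMM scaling and filterByExpr. An adjusted p under 0.05 made a call, and an SE was taken as the size of a log2 change over the root of its F. CPM used TMM-scaled totals. Differences between crosses used 1 fit of all 25 libraries with 8 group means. Alternatives used DESeq2 1.42.0 and limma 3.58.1. The tests were tried on simulated data with 200 changed genes. Within 888, 4% of 2-fold and 53% of 4-fold changes were recovered, and 6 unchanged genes were called. For 888 against the mean of the other crosses these values were 1%, 28% and 1. In the data 19.3% of genes were called within 888, far more than the 200 changed here. The simulation also used 1 spread per gene for both groups, so these shares need not hold in the data.

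Named genes were the calls of log2 CPM at least 4, without overlap of groups, with the largest log2 or CPM change in each direction, and, per group, the largest ratio of a bee to the next. A gene lost D reads if, with at least 30 reads, at most 0.05 were D while at least 2 sisters were balanced. Runs of constant excess were sought after seeing the data. Members and lists were chosen with earlier results of these data known. Since nothing says more about rearing, p-values measure the spread between single bees.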

Additional observations from a re-analysis of the deposited data

Results flagged for a closer look

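In all, 2 genes responded to ovary status in 888 differently from the mean of the other crosses by a test of the difference itself. Both were below the abundance limit for naming genes and were named after their values were seen. GB45557 stood at 23.7, 27.6 and 22.1 CPM in a, h and j, against 4.45, 4.78 and 6.30 CPM in e, q and u, without overlap. Its log2 change in 888 exceeded the mean of the other crosses by 1.74 (SE 0.28, edgeR adjusted p = 0.0364), and it passed in 7 of 15 alternatives. In the other crosses its log2 change was 1.40 in 882, 0.32 in 875 and 0.08 in 894.

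GB41383 stood at 2.34, 2.31 and 3.33 CPM in a, h and j, against 17.3, 18.9 and 8.399 CPM in e, q and u, again without overlap. Its difference from the mean of the other crosses was -1.91 (SE 0.33, edgeR adjusted p = 0.0388), past the threshold in 5 of 15 alternatives. Its log2 change was -0.81 in 882, -0.48 in 875 and -0.14 in 894.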

How the results depend on the processing

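No paired analysis was possible because the letters in the titles name single bees and pair none across ovary states. In the comparison within 888, higher and lower calls numbered 2415 and 253 with library totals only and 411 and 312 when tested against a 1.5-fold change. Leaving out 1 bee gave 42 to 1636 higher and 12 to 1753 lower calls. DESeq2 called 204 genes higher between 100 and 1000 CPM and 50 lower at 1000 CPM or more. Of the other alternatives, DESeq2, limma-voom, RLE size factors, no filter and the fit of all 25 libraries kept both counts within 1.5 times.

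The difference in response from the other crosses was called in 1 gene with no filter, 1 with limma-voom, 401 with DESeq2, and 0 without e and q, without the inactive 882 library that had lost D reads in 18 genes, and without cross 875, 882 or 894. Leaving out 1 bee of 888 gave 0 to 79. Against 882 alone, DESeq2 called 14 genes, the fit without e and q called 1, and leaving out 1 bee gave 0 to 1. Active bees of 888 against other active bees gave 2020 calls without cross 875, 690 without 882, 13 without 894, and 58 to 1282 without 1 bee. Inactive bees of 888 against other inactive bees gave 1 call with limma-voom, 56 with DESeq2, 4 without e and q, 10 without cross 875, 1 without 882, 7 without 894 and 0 to 53 without 1 bee. The cause of these shifts was not tested.

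The median log2 change of the higher list was 2.43 with limma-voom, 1.74 without e and q and 1.83 to 2.47 without 1 bee. The ratio of inactive to active spread was 1.88 (1.879) by the median SD of log2 CPM and 1.40 (1.4) to 1.87 (1.873) without 1 bee. GB40286 stayed past the threshold in 15 of 15 alternatives, GB46376 and GB53115 in 9 each and GB50115 in 4, with no direction reversed. The 15 include the fit without e and q, where u is the only inactive bee. Depth is lowest in u, with 7539840 counts, and in e, with 14290796.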

Other observations

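Scaffold neighbours of genes called in 888 were called the same way more often than genes with a listed position in general, in both directions. Among 5207 tested genes with a listed position, 27.1% of the scaffold neighbours of a lower gene were called lower. The share was 15.8% over all genes with a neighbour, each counted once per neighbour. For higher calls the shares were 13.2% and 7.17%. Over all genes tested, with or without a position, 10.1% were called lower and 9.17% higher. Within 20000 bases they were 30.7% of neighbours, beside 15.1% of all, for lower calls and 16.6% beside 7.91% for higher ones. No test was made, and neighbours may share reads where genes overlap.

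The longest runs of lower calls held 6 genes. Only tested genes with a listed position were counted as neighbours, so other genes may lie between them. In 1 run on scaffold Group4.5, from 126675 to 154667, the log2 changes were -7.36 to -1.75 (edgeR adjusted p at most 0.038), and GB53115 is one of its genes. The most abundant stood at 19.2, 16.9 and 3.98 CPM in a, h and j, against 1903, 653 and 96.2 CPM in e, q and u. For this gene all inactive bees were above the active ones, and u was the lowest of them, which did not hold for all 6 genes. In GB53116 the groups overlapped, at 41.6 CPM in h and 40.4 CPM in u. GB53114, GB53120 and GB53112 stood at 5.31 CPM or less in every bee. Without e and q the log2 change of GB53115 was -1.51, and values of the other members in that fit are not given here. Another 6 neighbouring genes on scaffold Group14.13, from 30007 to 200028, fell by 1.34 to 2.34 on the log2 scale (edgeR adjusted p at most 0.0406). The most abundant of these stood at 280, 314 and 210 CPM in a, h and j, against 757, 755 and 556 CPM in e, q and u, with the inactive bees close together.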
